A study of Mus musculus with 8 samples.

Results

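The genes of mitochondrial fatty acid oxidation were examined in bulk RNA-seq of mouse brown adipose tissue (BAT), the thermogenic fat depot. They are 37 named genes of acyl-CoA synthesis and hydrolysis, carnitine transfer, beta-oxidation, the electron transfer flavoprotein and propionyl-CoA carboxylase, taken by symbol from a count table of 31053 gene identifiers. The comparison was between 4 WT and 4 Cd36KO libraries, all from C57BL6/J mice that the labels place at 8 weeks of age. CD36 is a membrane receptor that binds and takes up long-chain fatty acids and oxidized lipoproteins. The labels give the genotype as Cd36KO alone. The study describes a germline knockout as well as CD36 flox/flox mice carrying Cre under the Csf1r promoter, which is active in macrophages and related myeloid cells, and it assigns its BAT transcriptome to the latter. Its legend for that transcriptome gives the same age as the labels, whereas its methods name a later age at sacrifice for those mice. The question was how the transcripts of the pathway that burns fatty acids in BAT differed between libraries labelled Cd36KO and WT.

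Mitochondria oxidize fatty acids after they have been activated to acyl-CoA and carried across the inner membrane as acylcarnitines. In the matrix, each turn of the beta-oxidation spiral dehydrogenates, hydrates, dehydrogenates again and cleaves the chain, releasing acetyl-CoA. Electrons from the first dehydrogenation pass through the electron transfer flavoprotein to ubiquinone. In brown adipocytes this flux feeds a respiratory chain uncoupled by UCP1, and fatty acids also activate UCP1 itself.

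Total counts per library ranged from 2679785 to 4097953, and 13368 to 14698 genes were detected. Cd36, the targeted gene, had normalized counts of 2796, 2958, 3505 and 2412 in WT replicates 1 to 4. It had 1926 in the unnumbered Cd36KO library, whose count column carries no replicate number, and 2109, 2384 and 1930 in Cd36KO replicates 2, 3 and 4. No Cd36KO value reached the WT range, although the transcript was readily counted in each of those libraries (log2 fold change -0.48, DESeq2 adjusted p = 0.0602). The labels call the cells a stromal vascular fraction. Markers of mature adipocytes nevertheless summed to between 38961 and 81218 normalized counts per library, and those of macrophages and other leukocytes to between 305 and 460, with Cd79a at 0. Skeletal muscle markers, 15 genes, summed to 56170 in WT replicate 1, to between 661 and 12221 in the other WT libraries and to between 131 and 8380 in Cd36KO. The 5 white depot markers summed to 628 in WT replicate 1, to between 2841 and 3931 in the other WT libraries and to between 387 and 652 in Cd36KO. WT replicate 1 thus stood apart, and values without it are given beside a number of the results below. Xist was counted between 772 and 1588 times in all 8 libraries, whereas 4 Y-linked genes together reached at most 3 counts, although the methods describe male mice.

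Of the 37 genes, 36 had at least 1 count, 35 received an adjusted p-value and 30 averaged 50 or more normalized counts. Acsl6, a long-chain acyl-CoA synthetase of brain and erythroid cells, had no count in any library.

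Sequence upstream of the annotated start is shown for genes whose counts are described below, so that the letters can be read beside the values. Acads and Etfb rose, Echs1 did not overlap between the groups, and Hadha and Hadhb are transcribed away from each other. Windows of 250 bases before the RefSeq start (build GRCm38.p6) were used, and stretches inside a GENCODE exon were left out. Letters run 5′ to 3′ on the strand of the gene. Capitals mark AGGTCA, the core motif bound by nuclear receptors such as PPARs and ERRs, the CCAAT box and the GC box GGGCGG, each on either strand.
Acads, chr5:115119347-115119596, minus strand: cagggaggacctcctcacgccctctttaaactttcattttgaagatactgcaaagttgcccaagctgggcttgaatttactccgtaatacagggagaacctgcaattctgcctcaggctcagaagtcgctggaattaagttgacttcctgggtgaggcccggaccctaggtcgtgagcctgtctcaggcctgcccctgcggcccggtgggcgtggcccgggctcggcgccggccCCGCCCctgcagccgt
Etfb, chr7:43443822-43444071, plus strand: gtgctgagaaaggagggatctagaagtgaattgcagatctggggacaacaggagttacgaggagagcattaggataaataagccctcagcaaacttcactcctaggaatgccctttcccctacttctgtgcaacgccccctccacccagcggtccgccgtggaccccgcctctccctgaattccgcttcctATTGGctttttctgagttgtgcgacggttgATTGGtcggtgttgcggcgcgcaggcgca
Echs1, chr7:140116477-140116671, minus strand: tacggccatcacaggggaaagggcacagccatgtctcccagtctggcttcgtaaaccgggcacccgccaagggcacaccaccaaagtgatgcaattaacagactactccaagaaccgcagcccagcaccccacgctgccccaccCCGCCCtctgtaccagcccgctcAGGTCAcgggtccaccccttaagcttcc
Hadha and Hadhb, chr5:30155163-30155247, plus strand as read towards Hadhb: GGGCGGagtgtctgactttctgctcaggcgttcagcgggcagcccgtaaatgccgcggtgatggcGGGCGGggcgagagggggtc

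The Hadha and Hadhb starts lie 273 bases apart, and the 85 bases shown are what no GENCODE exon covers between them. They hold 2 GC boxes. Echs1 carries 1 AGGTCA core, which begins 83 bases before the start. Etfb carries 2 CCAAT boxes and Acads 1 GC box. Over windows of 300 bases that include 50 bases after the start, the core was found in 7 of 35 member windows and in 16.3% of all 32851 windows. These 35 windows belong to 31 of the 37 genes. The 6 genes with a core were Acadm, Acadvl, Acsl6, Cpt1a, Echs1 and Pcca. A core repeated after 1 base (DR1, the PPAR-RXR element) was in none of the member windows and in 0.0396% of all. The core preceded by TCA (the ERR element) was in that of Acsl6 and in 0.423% of all. Both longer motifs contain the core. A CCAAT box was in 18 member windows, against 37.4% of all windows, and the GC box in 24, against 35.7%. The whole 250-base windows of Acads, Etfb and Echs1 held 60.4%, 55.6% and 62.8% G and C, beside a median of 52.4% over all promoters.

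Across the pathway, 3 of the 35 genes with an adjusted p-value were higher in Cd36KO and none was lower. The risers were Etfb, the beta subunit of the electron transfer flavoprotein, Acaa2, the mitochondrial 3-ketoacyl-CoA thiolase, and Acads, the short-chain acyl-CoA dehydrogenase. Of all genes tested, 2.95% passed in either direction, 1.42% as higher and 1.53% as lower. At an unadjusted p under 0.05 in DESeq2, 11 members were counted, beside 15.6% of all genes. These were 9 higher and 2 lower, beside 7.69% and 7.88% of all genes. Neither the edgeR quasi-likelihood test nor limma called a member at an adjusted p under 0.05, tools that called 0.143% and 0.0392% of all genes. In each, 9 members had an unadjusted p under 0.05, beside 16.1% of all genes in edgeR and 15.4% in limma. Without WT replicate 1, DESeq2 called Etfb and Acaa2 and no other member, with 3.35% of all genes called. Without WT replicate 4 it called 8 members, when 8.16% of all genes were called. The 5 that passed in addition were Acadvl, Acot11, Acot13, Acsl5 and Mlycd.

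The median log2 fold change was 0.27 over the 36 genes with a count, and 29 of them, or 80.6%, lay above 0. These 29 include Cpt1b, whose few counts cannot be read as its level. Over the members that averaged 50 or more normalized counts, which leave out Cpt1b, the median was also 0.27. The median over all genes with a count was -0.043, and 47.0% lay above 0. Among the 30 members that averaged 50 or more normalized counts, 26 lay above 0, or 86.7%, beside 53.1% of all genes at that level. The median without WT replicate 1 was 0.23. In 6 of the 30 members all Cd36KO values exceeded all WT values, and in none did they all fall below. The share of all genes at that level with such a gap was 10.9%, of which 6.91% were higher and 3.96% lower. The 6 were Etfb, Acaa2, Acads, Acot13, Mlycd and Echs1.

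**Figure D1:**
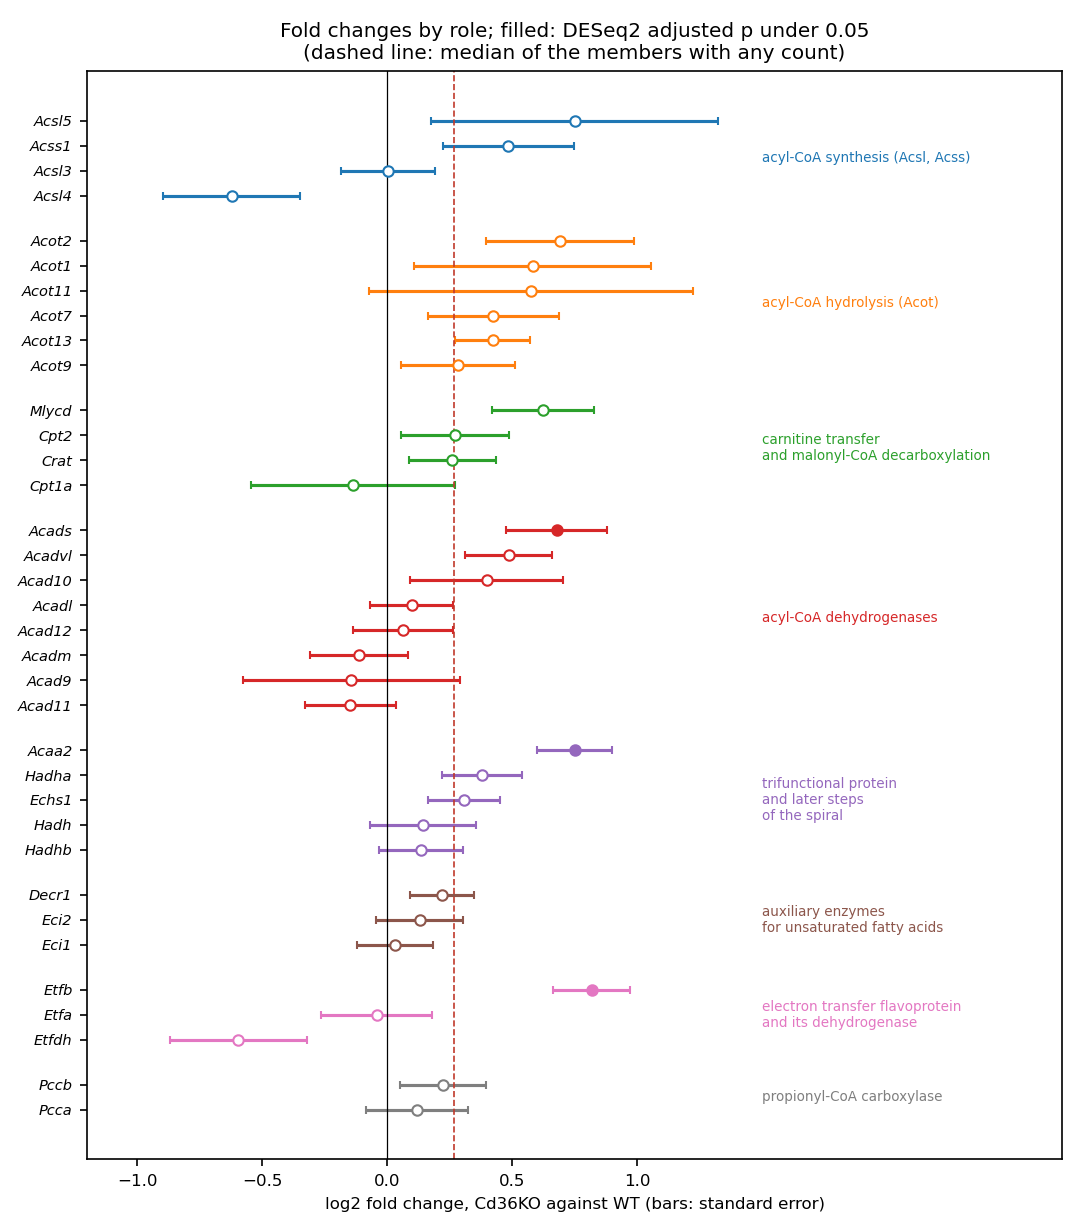
Log2 fold change of each member with an adjusted p-value, Cd36KO against WT, on the x axis, with genes grouped by role on the y axis and standard errors as bars. Filled points passed DESeq2 at an adjusted p under 0.05 and are Acads, Acaa2 and Etfb; the dashed line is the members' median of 0.27, and Etfdh and Acsl4 lie farthest below 0.

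Marker lists of several cell types differed alongside these values. Brown adipocyte markers, 9 genes, summed to between 17079 and 21537 normalized counts in WT and to between 29441 and 38537 in Cd36KO, and 3 of them passed as higher. These were Ucp1, Cidea and Cox7a1, of which Cidea alone passed whichever library was left out, and no marker of the list was at 0 in all libraries. None of the 3 passed in edgeR (adjusted p from 0.0749 to 0.158) or limma (adjusted p from 0.117 to 0.165). All 5 white depot markers had a fold change below 0, and the 4 with an adjusted p-value passed as lower in Cd36KO. Stromal and endothelial markers, 9 genes, summed to between 2044 and 2651 in WT and to between 1638 and 1817 in Cd36KO. All 9 had a fold change below 0, and 2 of them passed as lower. All 15 skeletal muscle markers had a fold change below 0, with a median log2 value of -2.82 and WT replicate 1 far above the rest. Their median was -1.47 without that library and -4.97 without the unnumbered Cd36KO library, the one with 8380. None of them passed DESeq2, and 6 had an unadjusted p under 0.05. Macrophage and other leukocyte markers, 9 genes, summed to between 323 and 460 in WT and to between 305 and 450 in Cd36KO. These ranges overlapped, and none of the 5 genes with an adjusted p-value passed. Of the 6 mature adipocyte markers, 5 lay below 0 and none passed. All Cd36KO values of Fabp4, a carrier of fatty acids, lay below all WT values (log2 fold change -0.73, DESeq2 adjusted p = 0.0762). Fabp4 passed without WT replicate 1 (-0.79, DESeq2 adjusted p = 0.0387) and without Cd36KO replicate 2 (-0.85, adjusted p = 0.0338). The part of these shifts in the results for the pathway was not tested. In bulk tissue, fewer cells of a type and less RNA per cell cannot be told apart.

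Fatty acids are activated by acyl-CoA synthetases, and none of the 4 members with a count passed the test. Acss1, the mitochondrial acetyl-CoA synthetase, had the highest mean count of the group. It had 320, 194, 167 and 331 normalized counts in WT, 348 in the unnumbered Cd36KO library and 334, 477 and 262 in the others. The 2 groups overlapped, and the log2 fold change was 0.49 ± 0.26 (SE, DESeq2 adjusted p = 0.359). Acsl4, which prefers arachidonic acid, had the lowest fold change among members with an adjusted p-value. Its WT libraries held 52, 49, 46 and 55 normalized counts, against 32, 29, 39 and 32 in Cd36KO. All Cd36KO values lay below all WT values, at a mean count under 50, and the log2 fold change of -0.62 did not pass (DESeq2 adjusted p = 0.222). Acsl5, a synthetase of the outer mitochondrial membrane and endoplasmic reticulum, varied widely within both groups. WT replicate 4 had 330 normalized counts where the other WT libraries had 91 to 146, and Cd36KO ranged from 115 to 462. The log2 fold change was 0.75 (DESeq2 adjusted p = 0.573), and 1.28 without WT replicate 4, where it passed (adjusted p = 0.0138). Acsl3, a synthetase of lipid droplets, averaged 145 normalized counts in either group, with a log2 fold change of 0.00 (0.04 without WT replicate 1) and an interval from -0.36 to 0.37 (95%).

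Acyl-CoA thioesterases hydrolyze acyl-CoA back to free fatty acid and CoA. All 6 members had a fold change above 0, with log2 values from 0.28 to 0.69 and a median of 0.50, and none passed the test. Acot13, a thioesterase associated with mitochondria in thermogenic tissue, was the member of the group whose libraries did not overlap. WT replicates had 1096, 1367, 1336 and 1517 normalized counts. In Cd36KO the unnumbered library had 1591 and replicates 2 to 4 had 1852, 1976 and 1705. All Cd36KO values exceeded the highest WT library. Means of 1329 ± 174 and 1781 ± 168 (SD, n = 4 each) gave a log2 fold change of 0.42, short of the threshold (DESeq2 adjusted p = 0.0971). Acot2, the thioesterase of the mitochondrial matrix, had 386, 892, 1089 and 893 normalized counts in WT. In Cd36KO it had 1640, 816, 1159 and 1648. WT replicate 1 was the lowest of the 8 and Cd36KO replicate 2 fell among the WT values (log2 fold change 0.69 ± 0.30 SE, DESeq2 adjusted p = 0.203). It was 0.46 without WT replicate 1. Its cytosolic relative Acot1 had 44, 20, 7 and 41 in WT and 56, 58, 28 and 29 in Cd36KO, with a log2 fold change of 0.58. This value became 0.89 without WT replicate 1 and 0.27 without WT replicate 3. Acot1 and Acot2 share 14.98% and 21.2% of their 75-base windows, and a read from such a window matches both genes. Where their reads fell was not tested. Acot11, a thioesterase also known from brown fat as Bfit, repeated the spread of Acsl5. It had 253 normalized counts in WT replicate 4 and 47 to 96 in the other WT libraries, and 281, 108, 92 and 197 in Cd36KO. Its log2 fold change was 0.58 (DESeq2 adjusted p = 0.747), and 1.33 without WT replicate 4, where it also passed (adjusted p = 0.0134). Acot7 and Acot9 had log2 fold changes of 0.42 and 0.28, and that of Acot7 was 0.21 without the unnumbered Cd36KO library.

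Carnitine transfer carries the acyl group inwards, and malonyl-CoA, which blocks its first enzyme, is removed by the decarboxylase Mlycd. The values of Mlycd were 172, 200, 188 and 224 normalized counts in WT, 412 in the unnumbered Cd36KO library and 243, 284 and 268 in the others. Each Cd36KO library exceeded each WT library, and the unnumbered one stood highest. The log2 fold change was 0.62 ± 0.21 (SE) and the DESeq2 adjusted p was 0.0648, which did not pass. Cpt1a, the liver-type carnitine palmitoyltransferase of the outer membrane, had few counts, with 39, 21, 29 and 19 normalized counts in WT and 13, 29, 20 and 35 in Cd36KO. The log2 fold change of -0.14 had an interval from -0.94 to 0.67 (95%), and it turned to 0.10 without WT replicate 1. Cpt1b, the muscle-type isoform that brown adipocytes are known for, held 11 counts over all libraries and was at 0 in WT replicates 2, 3 and 4. The whole of its last 500 exonic bases is shared on the same strand with the annotated read-through gene Gm44502, which also had 0 counts. How the counter treated such reads is not stated, so the count of Cpt1b cannot be read as its level. No fold change is given for it.

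Cpt2, which regenerates acyl-CoA on the inner side, had 542, 516, 550 and 866 normalized counts in WT and 983, 628, 710 and 663 in Cd36KO. WT replicate 4 lay within the Cd36KO range, and the log2 fold change was 0.27 (DESeq2 adjusted p = 0.598). It was 0.48 without WT replicate 4 (DESeq2 adjusted p = 0.0879) and 0.11 without the unnumbered Cd36KO library. Crat, the carnitine acetyltransferase that buffers acetyl-CoA, had 813, 798, 877 and 635 in WT and 1189, 825, 865 and 866 in Cd36KO. The unnumbered library alone exceeded the WT range (log2 fold change 0.26, DESeq2 adjusted p = 0.497; 0.13 without that library).

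The acyl-CoA dehydrogenases open each turn of the spiral and divide the chain lengths among them. Of the 8, Acads was higher in Cd36KO and the other 7 did not pass. Acads (ENSMUSG00000029545, chromosome 5, 115110299 to 115119346) had 1284, 2054, 1796 and 2185 normalized counts in WT. It had 3524 in the unnumbered Cd36KO library and 2198, 2911 and 3077 in replicates 2, 3 and 4. Cd36KO replicate 2 lay just above the highest WT value, so the groups were separated by a narrow gap. The means were 1830 ± 398 and 2928 ± 551 (SD, n = 4 each), 1.60-fold apart, with a log2 fold change of 0.68 ± 0.20 (SE) and a DESeq2 adjusted p of 0.0357. Without WT replicate 1, the lowest library, the log2 fold change was 0.54 and the DESeq2 adjusted p was 0.0601. The adjusted p over all alternatives ran from 0.00751 to 0.448, and Acads passed in 4 of 15. Leaving out WT replicate 2, WT replicate 3, the unnumbered Cd36KO library, Cd36KO replicate 3 or Cd36KO replicate 4 also ended the call, with DESeq2 adjusted p-values from 0.0989 to 0.192. Over these 6 fits the log2 fold change was 0.54 to 0.74.

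Acadvl, which handles very long chains at the inner membrane, had 2245, 2310, 2114 and 3312 normalized counts in WT and 3887, 3074, 3349 and 3666 in Cd36KO. WT replicate 4 alone reached into the Cd36KO range. The log2 fold change was 0.49 (DESeq2 adjusted p = 0.105), and 42.9% of its exonic bases lie antisense to another gene. Acadl, the long-chain enzyme and the member with the highest mean count among the dehydrogenases, had 5493, 4588, 4011 and 5441 in WT. Its Cd36KO values were 4516, 5940, 5876 and 4576. The groups were interleaved, with a log2 fold change of 0.10 and an interval from -0.23 to 0.42 (95%). The value was 0.16 without WT replicate 1 and 0.02 without WT replicate 3. Acadm, the medium-chain enzyme, had 3179, 2885, 3601 and 2295 in WT and 2574, 3467, 2965 and 2068 in Cd36KO, again interleaved (log2 fold change -0.11, DESeq2 adjusted p = 0.852). The more divergent family members Acad9, Acad10, Acad11 and Acad12 had log2 fold changes of -0.14, 0.40, -0.15 and 0.06. Acad9 stood at -0.02 and Acad12 at -0.0018 without WT replicate 1. Whether fold changes differed between chain-length classes was not tested.

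**Figure D2:**
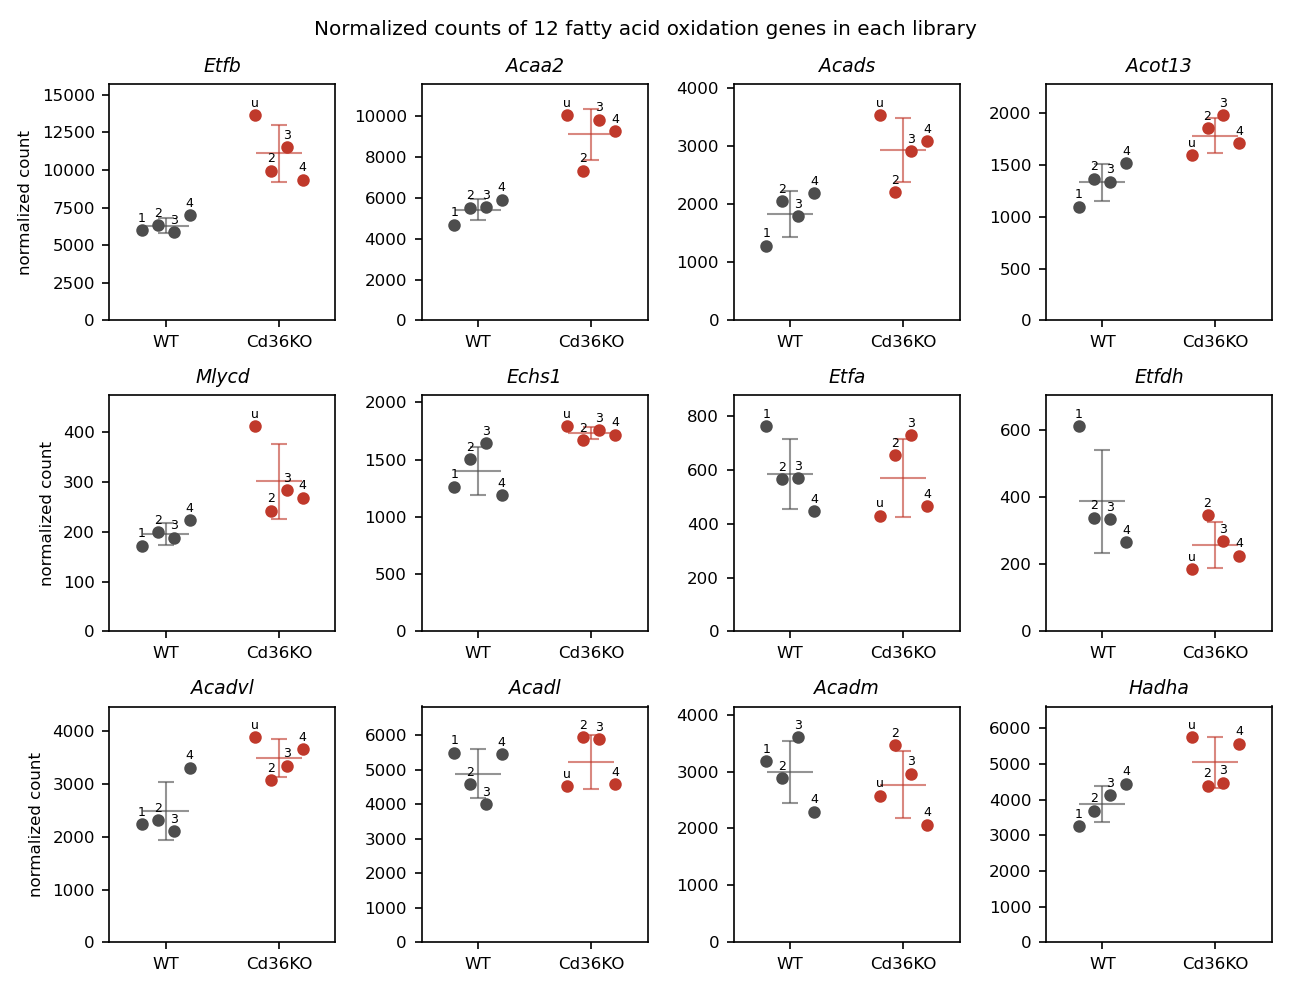
Normalized counts of 12 members in each library, with WT in grey and Cd36KO in red, numbers marking replicates and u the unnumbered Cd36KO library. Lines show the group mean and bars the SD over 4 libraries; the groups do not overlap for Etfb, Acaa2, Acads, Acot13, Mlycd and Echs1 and do overlap for the other 6.

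The later steps of the spiral are run by Echs1, Hadh and Acaa2 for shorter chains and by the trifunctional protein for longer ones. All 5 members had a fold change above 0, with a median log2 value of 0.31, and 1 passed. Acaa2 (ENSMUSG00000036880, chromosome 18, 74779197 to 74806208), the thiolase that cleaves off acetyl-CoA, had 4678, 5513, 5548 and 5916 normalized counts in WT. It reached 10039 in the unnumbered Cd36KO library and 7321, 9830 and 9250 in replicates 2, 3 and 4. Every Cd36KO library exceeded every WT library. The mean rose 1.68-fold, a log2 fold change of 0.75 ± 0.15 (SE) with a DESeq2 adjusted p of 0.000236. Without WT replicate 1 the log2 fold change was 0.69. The edgeR adjusted p was 0.104.

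Echs1, the short-chain enoyl-CoA hydratase, had 1264, 1504, 1644 and 1190 normalized counts in WT. The Cd36KO libraries were tightly grouped at 1790, 1671, 1754 and 1718. The gap to the highest WT library was small beside the spread of WT, and the log2 fold change of 0.31 ± 0.14 (SE) had a DESeq2 adjusted p of 0.260. Hadha, the alpha subunit of the trifunctional protein, had 3266, 3692, 4122 and 4454 in WT and 5754, 4395, 4477 and 5574 in Cd36KO. Cd36KO replicate 2 lay below WT replicate 4 (log2 fold change 0.38, DESeq2 adjusted p = 0.190). Hadhb, the beta subunit, had 1387, 1055, 937 and 1162 in WT and 1031, 1274, 1391 and 1290 in Cd36KO. These values were interleaved, with a log2 fold change of 0.13 (DESeq2 adjusted p = 0.775). It was 0.25 without WT replicate 1 and 0.06 without WT replicate 3. Hadhb shares 16.7% of its 75-base windows with the pseudogene Gm13910. Hadh, the short-chain hydroxyacyl-CoA dehydrogenase, had 3593 normalized counts in WT replicate 4, which exceeded all other libraries of either group. Its log2 fold change was 0.14, and ran from 0.02 without WT replicate 3 to 0.40 without WT replicate 4 (DESeq2 adjusted p = 0.0544).

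Unsaturated chains need auxiliary isomerases and a reductase before they can pass through the spiral. Decr1, the dienoyl-CoA reductase, had 1824, 1700, 1820 and 1962 normalized counts in WT and 2244, 1863, 2106 and 2287 in Cd36KO. Cd36KO replicate 2 lay within the WT range, and the log2 fold change was 0.22 (DESeq2 adjusted p = 0.411). The enoyl-CoA isomerases Eci1 and Eci2 had log2 fold changes of 0.03 and 0.13, and that of Eci1 was -0.0069 without WT replicate 1.

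The electron transfer flavoprotein is a dimer of Etfa and Etfb, and Etfdh hands its electrons to ubiquinone. Of the 3 genes, Etfb rose and the other two did not pass. Etfb (ENSMUSG00000004610, chromosome 7, 43444083 to 43457800) had 6013, 6349, 5873 and 6985 normalized counts in WT. It had 13646 in the unnumbered Cd36KO library and 9961, 11503 and 9369 in replicates 2, 3 and 4. The lowest Cd36KO library was thus well above the highest WT library. The mean rose from 6305 ± 496 to 11120 ± 1910 (SD, n = 4 each), or 1.76-fold. With a log2 fold change of 0.82 ± 0.15 (SE), its DESeq2 adjusted p of 8.09e-05 was the lowest of all members, and the edgeR adjusted p was 0.0935. Without WT replicate 1 the log2 fold change was 0.80. Of its exonic bases, 58.2% are shared with the annotated gene Gm45233, which had 0 counts, but 12.2% of the last 500 bases are.

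Etfa had 763, 567, 569 and 447 normalized counts in WT and 430, 655, 730 and 466 in Cd36KO. The groups were interleaved, and the log2 fold change was -0.04, with an interval from -0.48 to 0.40 (95%). It was 0.11 without WT replicate 1. Etfdh had 611 in WT replicate 1 and 339, 334 and 266 in the other WT libraries, against 186, 346, 269 and 226 in Cd36KO. WT replicate 1 was far above the rest, and the log2 fold change of -0.60 did not pass (DESeq2 adjusted p = 0.248). Without that library it was -0.29.

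**Figure D3:**
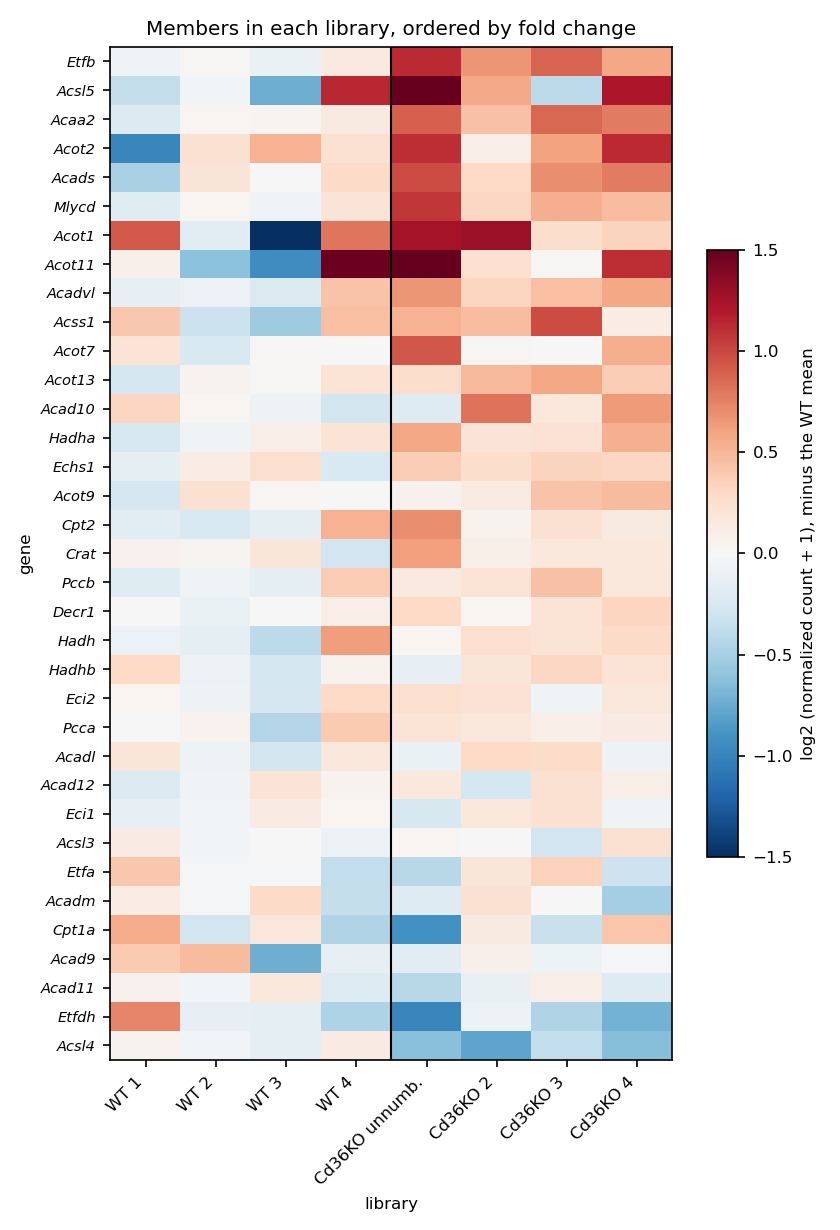
The 35 members with an adjusted p-value, ordered by fold change, in each of the 8 libraries, with colour giving log2 of the normalized count plus 1 relative to the WT mean. Etfb and Acaa2 are red across all Cd36KO libraries, while Acsl5 and Acot11 are reddest in WT replicate 4, the unnumbered Cd36KO library and Cd36KO replicate 4 and paler red in Cd36KO replicate 2.

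Propionyl-CoA carboxylase takes up the propionyl-CoA left by odd chains and some amino acids. Pcca, its alpha subunit, had 153, 158, 112 and 200 normalized counts in WT and 176, 171, 164 and 166 in Cd36KO. Pccb, the beta subunit, had 572, 620, 593 and 850 in WT and 719, 749, 879 and 731 in Cd36KO. For both subunits the Cd36KO values lay inside or close to the WT range, with log2 fold changes of 0.12 and 0.22 and DESeq2 adjusted p-values of 0.846 and 0.571.

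Ratios between partner genes within a library do not depend on the scaling of that library, and 4 pairs could be formed. The log2 ratio of Etfa to Etfb counts was -2.98, -3.49, -3.37 and -3.97 in WT replicates 1 to 4. It was -4.99 in the unnumbered Cd36KO library and -3.93, -3.98 and -4.33 in replicates 2, 3 and 4. WT replicate 4 fell inside the Cd36KO range, and the other WT libraries lay above it. The mean difference was -0.86 (exact two-sided permutation p = 0.0571, adjusted over 4 pairs 0.229), in a design whose smallest p is 0.0286. The difference was -0.70 without WT replicate 1 and -0.47 over the pairs that share a replicate number. The ratio of Hadha to Hadhb differed by 0.24 (exact two-sided permutation p = 0.457, adjusted 0.648), that of Pcca to Pccb by -0.087 (p = 0.486, adjusted 0.648) and that of Acot2 to Acot1 by -0.096 (p = 0.943, adjusted 0.943). The Hadha to Hadhb difference was 0.055 without WT replicate 1 and that of Pcca to Pccb -0.025. The Acot2 to Acot1 difference ran from -0.75 without WT replicate 1 to 0.64 without WT replicate 3. No ratio of Cpt1b to Cpt1a was formed, because 3 libraries had no Cpt1b count.

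**Figure D4:**
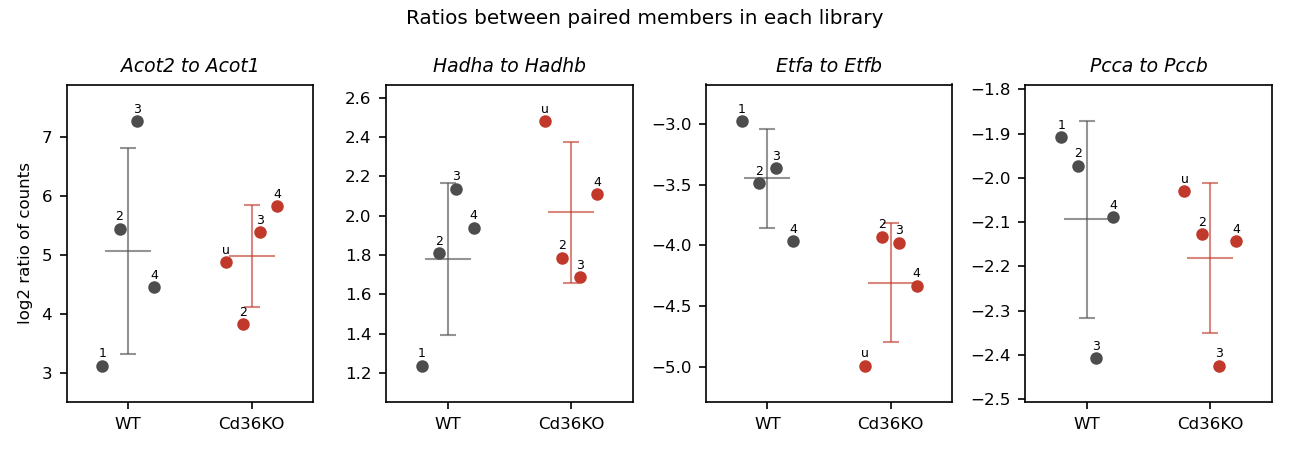
Log2 ratio of the counts of paired members in each library on the y axis, for WT (grey) and Cd36KO (red), with group means and SD over 4 libraries and u for the unnumbered Cd36KO library. Etfa to Etfb averages -3.45 in WT and -4.31 in Cd36KO with WT replicate 4 inside the Cd36KO range, and the other 3 pairs overlap throughout.

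Other genes of the pathway, 53 in all, were read beside the members. Of the 47 with an adjusted p-value, 2 were higher and 1 was lower in Cd36KO, and the median log2 fold change over all 53 was 0.12. The higher ones were Ech1, a dienoyl-CoA isomerase, at a log2 fold change of 0.61 (DESeq2 adjusted p = 0.0337), and Echdc3, an enoyl-CoA hydratase-like gene, at 0.76 (adjusted p = 0.0313). Ech1 had 2235 to 2932 normalized counts in WT and 3006 to 4734 in Cd36KO, without overlap. Slc27a1, the fatty acid transporter FATP1, was the lower one, with 125, 228, 339 and 206 in WT and 133, 133, 104 and 95 in Cd36KO. WT replicate 1 lay among the Cd36KO values of Slc27a1 (log2 fold change -0.95, DESeq2 adjusted p = 0.0331). None of these 3 genes passed in edgeR or limma, and leaving out 1 library gave from 0 to 7 calls among the other genes of the pathway. Ech1 and Echdc3 lost their calls without WT replicate 1 (DESeq2 adjusted p = 0.0606 and 0.0689), and likewise without WT replicate 2 or 3, the unnumbered Cd36KO library or Cd36KO replicate 3 or 4. In those 6 fits the log2 fold change was 0.47 to 0.67 for Ech1 and 0.72 to 0.78 for Echdc3. Slc27a1 kept its call without WT replicate 1 (log2 fold change -1.15) and lost it without WT replicate 2 or 3, the unnumbered Cd36KO library or Cd36KO replicate 3 or 4, at -1.01 to -0.68.

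Acsl1, the main long-chain acyl-CoA synthetase of adipocytes, had 5165, 5676, 7563 and 5606 normalized counts in WT and 4197, 5177, 5128 and 4218 in Cd36KO. The WT value of replicate 1 lay just below the highest Cd36KO value, and the log2 fold change was -0.36 (DESeq2 adjusted p = 0.242), or -0.23 without WT replicate 3, the highest library. Slc25a20, the carnitine-acylcarnitine carrier that works between Cpt1 and Cpt2, had a log2 fold change of 0.20 (DESeq2 adjusted p = 0.679), which was 0.12 without the unnumbered Cd36KO library and 0.08 without WT replicate 3. Among the regulators of the pathway, Ppara, a nuclear receptor, had a log2 fold change of 0.07 (DESeq2 adjusted p = 0.910). Its sign turned without WT replicate 4 (-0.02) or Cd36KO replicate 3 (-0.08), and the value was 0.16 without WT replicate 3 and 0.17 without the unnumbered Cd36KO library. Ppargc1a, the coactivator of mitochondrial genes, had 449, 307, 354 and 212 normalized counts in WT and 412, 530, 528 and 409 in Cd36KO. WT replicate 1 exceeded 2 of the Cd36KO libraries, and the log2 fold change of 0.51 did not pass (DESeq2 adjusted p = 0.231). Without WT replicate 1 it was 0.69 and passed (DESeq2 adjusted p = 0.0334). Prdm16, a transcriptional regulator of brown fat, had a log2 fold change of 0.78 (DESeq2 adjusted p = 0.0572), and of 0.97 without WT replicate 1, which passed (adjusted p = 0.00677). With all 8 libraries and DESeq2 size factors, none of the 10 regulators passed in either direction. At an unadjusted p under 0.05 in DESeq2, 2 were higher and 2 were lower, beside 7.69% and 7.88% of all genes.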

How the data were processed

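Single-end reads of 75 cycles were trimmed by the authors with bbduk, mapped with STAR and assigned to genes with HTSeq-count, as the methods state; the submitters' processing notes name Trimmomatic, HISAT2 and DESeq2 instead, on GRCm38 (mm10). The deposited counts are whole numbers per gene, not normalized, and strand setting and molecular identifiers are not stated. The log2 values deposited by the authors equal log2(count / size factor + 1) with median-of-ratios size factors (largest difference 4.97e-14), and served for limma alone. Symbols and coordinates came from GENCODE M21 (30934 of 31053 identifiers matched, 17367 with a count).

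Counts of all genes were tested with DESeq2 1.42.0 (Wald test, genotype as the only term) in R 4.3.3, with Benjamini-Hochberg adjustment over all genes and a threshold of 0.05. Normalized counts are counts over the size factor. Alternatives were edgeR 4.0.16, limma 3.58.1, TMM factors, a filter of 10 counts in 4 libraries, no independent filtering, a replicate block and leaving out each library. Paired ratios were tested by exact permutation over 70 arrangements (SciPy 1.17.1). All libraries differed by more than sampling noise (lowest chi-square per degree of freedom 6.43). The study gives 4 mice per group for this comparison, so libraries were taken as separate animals, although the labels do not name them. Functions were tested on simulated data. The members and all gene lists were chosen with earlier results of these data known. Members named with every library were those that passed, those without overlap at a mean of at least 50, the highest-count member of each role and both members of each pair; Acsl4, Acsl5, Acot11, Acadvl, Acadm, Cpt2, Hadh, Etfdh and Prdm16, and the CCAAT and GC box motifs, were added after values were seen. Sequences came from RefSeq. Total counts per library ranged from 2679785 to 4097953, and precision was taken from the spread between libraries.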

Additional observations from a re-analysis of the deposited data

Results flagged for a closer look

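A gap between 1 library and the rest of its group, wide beside the group's whole range, occurred in 2 of 70 groups of 4 libraries tested, where chance gives about 3.5. Cpt2, the inner carnitine palmitoyltransferase, had 866 normalized counts in WT replicate 4, while the other WT libraries had 516 to 550. Crat, the carnitine acetyltransferase, had 1189 in the unnumbered Cd36KO library, while the other Cd36KO libraries had 825 to 866. Neither gene passed DESeq2 in the comparison of the groups.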

How the results depend on the processing

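The number of members called was 3 with DESeq2 and 0 with edgeR and with limma (9 at an unadjusted p under 0.05 in each), and 2 to 8 when 1 library was left out. The 8 came without WT replicate 4 and added Acadvl, Acot11, Acot13, Acsl5 and Mlycd, with 8.16% of all genes then called. The other pathway genes called were 3 with DESeq2 (2.95% of all genes called), 0 with edgeR (14 unadjusted; 0.143%), 0 with limma (16; 0.0392%), 5 with TMM factors (3.92%), 0 with independent filtering off (17 unadjusted in DESeq2; 0.985%) and 0 to 7 with 1 library left out. They were 0 without WT replicate 2, WT replicate 3, the unnumbered Cd36KO library or Cd36KO replicate 4 (11 to 14 unadjusted in DESeq2), when 0.678% to 1.29% of all genes were called. The causes were not tested.

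Etfb and Acaa2 passed in 13 of 15 alternatives, the exceptions being edgeR and limma, and Acads in 4. Mlycd passed in 2 and Acot13 in 1. Of the other pathway genes, Slc27a1 passed in 7, and Ech1 and Echdc3 in 4 each. Leaving out 1 library moved the log2 fold changes of the 3 members called by less than 1.5 times. Of the 32 not called, 24 moved by more than that in at least 1 such fit and 8 changed sign (Acsl3, Cpt1a, Acadm, Acad9, Acad12, Eci1, Etfa and Pcca). Among the other pathway genes the 3 called did not move by that much, while 33 of the 44 not called did and 11 changed sign, Ppara among them. A move given as a multiple is larger for a fold change near 0, and the genes called had large ones. These counts therefore cannot show that the genes called were more stable. The members' median log2 fold change stayed between 0.21 and 0.30. With 1 library left out, the log2 fold change of Cpt1a ran from -0.38 to 0.10, that of Etfa from -0.18 to 0.11 and that of Pcca from -0.0052 (without WT replicate 3) to 0.26. None of these 3 passed in any alternative that gave it an adjusted p, which 3 of the fits without a library did not for Cpt1a. Ppargc1a passed without WT replicate 1, with the replicate block and in the same 6 libraries without it. Prdm16 passed with TMM factors, without WT replicate 1, without Cd36KO replicate 3 and in those 6 libraries without the block.

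Replicate numbers 2, 3 and 4 are shared, and deviations of same-numbered libraries correlated at -0.13, 0.42 and 0.14. Correlations between differently numbered libraries were not computed, so these values cannot decide whether the numbers mark pairs. The main fit did not take them as pairs. With the replicate block, 2 members and 2 other genes were called (1.81% of all genes), and without it in the same 6 libraries 2 and 3 (2.29%). Over same-numbered libraries the log2 ratio of Etfa to Etfb differed by -0.47, of Hadha to Hadhb by -0.10, of Acot2 to Acot1 by -0.71 and of Pcca to Pccb by -0.076. With 1 library left out, these ran from -1.03 to -0.63, 0.055 to 0.36, -0.75 to 0.64 and -0.19 to -0.0062. The log2 fold change of Cpt1a was 0.28 with the block and 0.30 in the same 6 libraries without it, and that of Etfa 0.21 and 0.23. Counts below about 50 per library, such as those of Cpt1a, Acad9 and Acot1, limit what could be detected.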
